A study of Arabidopsis thaliana with 12 samples.

Results

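Calmodulin-like (CML) proteins are small calcium sensors of plants. Like calmodulin they carry EF-hands, loops that bind calcium, and on binding they change shape and act on partner proteins, so that a rise of cytosolic calcium after touch, wounding, attack or low oxygen is passed on. Plants hold a large family of them, and many of their genes are themselves switched on by stress and hormones. The CML genes described here are the probe sets that the platform's annotation pairs with 1 gene whose symbol starts with CML and a number. There were 7 such genes, on 7 of the 22746 probe sets of the ATH1 array that are not controls, out of 13356 genes that the annotation pairs with a probe set: CML23 (AT1G66400), CML30 (AT2G15680), CML37 (AT5G42380), CML38 (AT1G76650), CML41 (AT3G50770), CML42 (AT4G20780) and CML43 (AT5G44460). Each was represented by 1 probe set, and each locus was found in RefSeq's gene list (assembly TAIR10.1). They are a part of the family only, since most probe sets of the array carry a locus code or no name in that annotation.

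Total RNA was measured on 12 arrays, 1 per RNA sample, of Arabidopsis thaliana seedlings grown on agar with 1% sucrose after a cold treatment of the seeds. At 14 d there were the ethylene-insensitive mutant ein2 (allele ein2-1) and the wild type Col-0. At 12 d there were the mutant aba2 (allele gin1-3), which makes little abscisic acid (ABA), the ethylene-insensitive mutant etr1 (allele etr1-1), and the wild types Col-7 and Col-0. Each of these 6 groups had 2 arrays. EIN2 passes the ethylene signal on towards the nucleus, ABA2 is an enzyme of ABA synthesis, and ETR1 is an ethylene receptor whose etr1-1 form is dominant and does not respond to the hormone. The series is about crosstalk between ABA and ethylene signalling. Its design text mentions 2 independent sets of measurements, and it is not clear whether these are the replicates or the 2 ages. If they are the ages, age and set cannot be told apart. No label says that replicates came from separate cultures, so the p-values measure the spread between these arrays. The wild type that served as control for aba2 is not stated, and aba2 was set against both.

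The authors' signals were already scaled to 1 trimmed mean (500.04 to 500.05 on every array). Their medians were 207.9 to 213.8 on the 4 arrays at 14 d and 187.9 to 198.4 on the 8 arrays at 12 d. Replicates were unequally close. They were compared as signal + 50, on which gaps are smaller than in the signals themselves, most of all for low signals. On that scale, the 2 arrays of a group differed more than 2-fold for 0.205% of 13648 probe sets in ein2. The share was 0.264% in Col-0 at 14 d, against 0.659% in aba2, 0.396% in etr1, 4.26% in Col-7 and 8.62% in the 12-d Col-0 seedlings. LHCB4.1, for an antenna protein of photosynthesis, had signals of 16210 to 26830 over the arrays, and PYK10, a beta-glucosidase gene of roots and hypocotyls, had 10070 to 17240, so the RNA held both green and root tissue. In whole seedlings, fewer cells of a type and less RNA per cell cannot be told apart.

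CML38 had signals of 273.2 to 3064 over the 12 arrays (median 1041). CML42 had 144.6 to 784.8 (median 304.3), CML30 141.4 to 282.2 (median 214.7), CML23 55.53 to 275.4 (median 147.6) and CML41 77.7 to 200.8 (median 116). These 5 passed the filter on dim probe sets, a mean signal of at least 122.3, the 40th percentile. CML41 passed it narrowly with a mean of 123.1. CML43 (44.41 to 133.3, mean 82.21) and CML37 (1.702 to 166.1, mean 56.26) did not, and are described without being counted among the tested genes. The signal of one probe set cannot be set against that of another, and levels are compared only between groups within a gene.

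**Figure D1:**
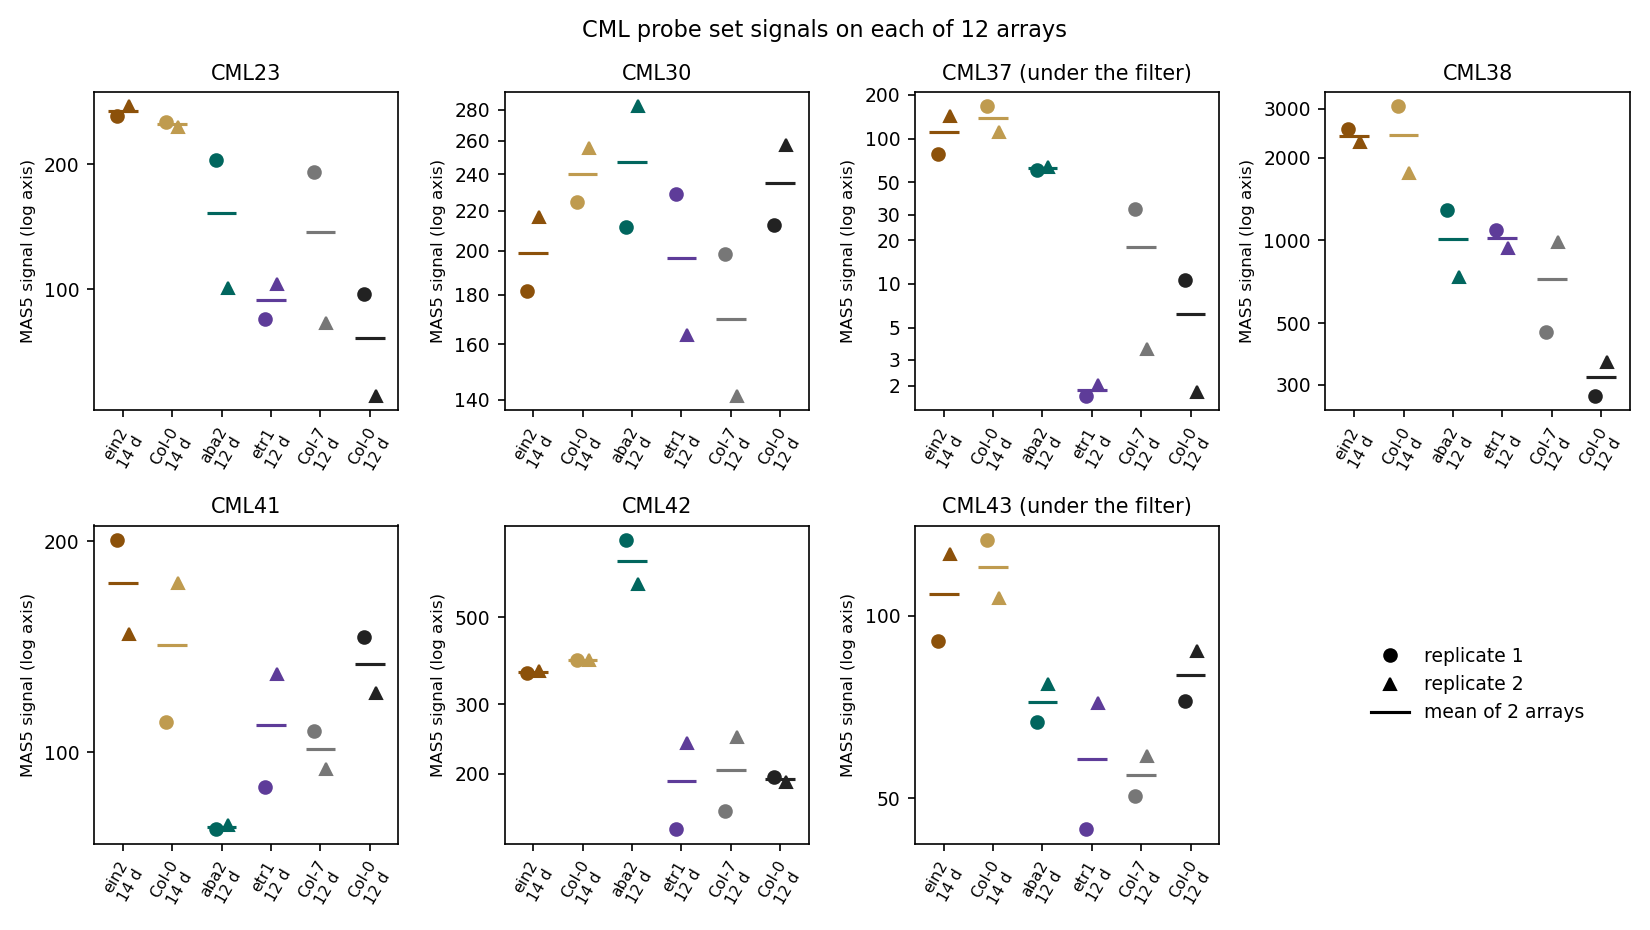
Signal of each CML probe set on each of the 12 arrays, on log axes that differ between the panels, with circles for replicate 1, triangles for replicate 2 and a bar for the mean of the 2 arrays of a group. CML42 was highest on both aba2 arrays (784.8 and 604.9), CML38 was at 1761 or more on all 4 arrays at 14 d, and the 2 arrays of CML23 lay well apart in aba2 and Col-7.

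The genes also varied by different amounts. On the scale of log2(signal + 50), the standard deviation of CML38 over the 12 arrays was 1.05, above 98.7% of the 13648 tested probe sets. It was 0.65 for CML42 (above 94.2%), 0.587 for CML23 (above 92.8%), 0.31 for CML41 (above 66.4%) and 0.226 for CML30 (above 40.9%). CML38, CML42 and CML23 were thus among the more variable transcripts of the array, and CML30 was not. The ratio of the highest to the lowest group mean signal was 7.58 for CML38, 3.62 for CML42, 3.51 for CML23, 2.23 for CML41 and 1.45 for CML30.

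Differences between groups were tested with limma on log2(signal + 50), in 1 fit of the 6 group means to all 12 arrays. Values are log2 differences ± standard error with 2 arrays per group. A fold given beside one is that of signal + 50, which is smaller than the ratio of the signals themselves, most of all for low signals. The p-values are two-sided and adjusted by the Benjamini-Hochberg method over all 13648 probe sets, with a threshold of 0.05. An exact permutation test of 2 arrays against 2 cannot give a p below 0.333. Groups of 2 arrays that do not overlap are therefore common. In etr1 over Col-0, 19.3% of all tested probe sets were higher on both etr1 arrays. That share is not given for the other pairs of groups, so their separations are descriptions only.

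Setting aba2 against wild types of its age bears on transcripts that respond to a shortage of ABA. Among the tested CML genes only CML42 passed the threshold, over each wild type, and whether it differed from the other CML genes was not tested. It is a sensor that limits trichome branching and takes part in the control of jasmonate-dependent defence against insects. CML42 had signals of 784.8 and 604.9 in aba2, against 160.8 and 248.7 in Col-7, with 196.5 and 190.5 in Col-0 at 12 d. Both aba2 arrays were above all 10 other arrays, including those at 14 d. CML42 rose 2.95-fold over Col-7 (1.56 ± 0.222, limma adjusted p = 0.0196) and 3.04-fold over Col-0 (1.60 ± 0.222, limma adjusted p = 0.00627). The comparisons share the aba2 arrays and are not separate evidence.

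CML42 was 1 of 5 tested CML genes called in each of these comparisons, where 0.454% of all tested probe sets were called against Col-7 and 1.62% against Col-0. The call over Col-7 was lost without Col-7 replicate 1 (1.31, limma adjusted p = 0.0686), aba2 replicate 1 (1.38, limma adjusted p = 0.148) or aba2 replicate 2 (1.73, limma adjusted p = 0.116), and the call over Col-0 without aba2 replicate 1 (1.43, limma adjusted p = 0.0758). In a limma fit of only the 4 arrays compared, the adjusted p was 0.0929 over Col-7 and 0.0893 over Col-0, and with array weights it was 0.0658 over Col-0.

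CML43, the closest relative of CML42 and a gene of root and defence, did not show that pattern. Its signals were 66.81 and 77.24 in aba2, against 50.37 and 58.69 in Col-7 and 72.22 and 87.5 in Col-0 at 12 d. They were above the Col-7 arrays and overlapped with those of Col-0. In a fit without the filter the differences were 0.22 ± 0.189 over Col-7 and -0.09 ± 0.189 over Col-0.

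CML37 takes part in wound and insect responses and in ABA-dependent drought responses. It had signals of 60.99 and 63.43 in aba2, against 32.58 and 3.593 in Col-7 and 10.67 and 1.798 in Col-0 at 12 d. The aba2 arrays were close together and above each of these wild-type arrays. In a fit without the filter, the difference was 0.75 ± 0.251 over Col-7 (adjusted p = 0.297 by limma) and 1.00 ± 0.251 over Col-0 (adjusted p = 0.133 by limma). CML37 did not pass in aba2 over either wild type. Its wild-type signals lie below the offset of 50, so that these differences understate the ratio of the signals.

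The other tested CML genes did not pass in aba2 against Col-7. CML38, a sensor induced by wounding and by low oxygen, had 1292 and 734.9 in aba2, against 465.1 and 987.2 in Col-7 (0.49 ± 0.367, 95% interval -0.32 to 1.3). CML23, a close relative of the touch gene TCH2 with roles in flowering time, had 204.9 and 101.1 in aba2, against 192.1 and 82.93 in Col-7 (0.13 ± 0.309, 95% interval -0.56 to 0.81). For both genes the arrays of the groups overlapped. CML30, a sensor found at mitochondria, had 211.7 and 282.2 in aba2, against 198.5 and 141.4 in Col-7 (0.44 ± 0.205, 95% interval -0.02 to 0.89). CML41, which acts at plasmodesmata in immunity, had the lowest values of all 12 arrays in aba2, 77.7 and 78.73, against 107.3 and 94.7 in Col-7 (-0.23 ± 0.214, 95% interval -0.71 to 0.24).

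Against Col-0 in place of Col-7, CML38 was further from the wild type. Its 273.2 and 363.6 in Col-0 at 12 d lay below both aba2 arrays, and the difference was 1.49 ± 0.367 (limma adjusted p = 0.0867), which did not pass. CML23 (0.65 ± 0.309, adjusted p = 0.446 by limma) and CML41 (-0.52 ± 0.214, adjusted p = 0.359 by limma) did not pass either. The difference of the wild types themselves was 1.0 ± 0.367 for CML38 (Col-7 over Col-0, unadjusted p = 0.0208 and adjusted p = 0.963 by limma). It was 0.495 without Col-7 replicate 2 and 1.504 without Col-7 replicate 1. No probe set was called between the wild types (0 of 13648, or 0%, by limma; 4.79% had an unadjusted p under 0.05), although 465 were called without Col-0 replicate 1 and 1 without Col-7 replicate 1.

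**Figure D2:**
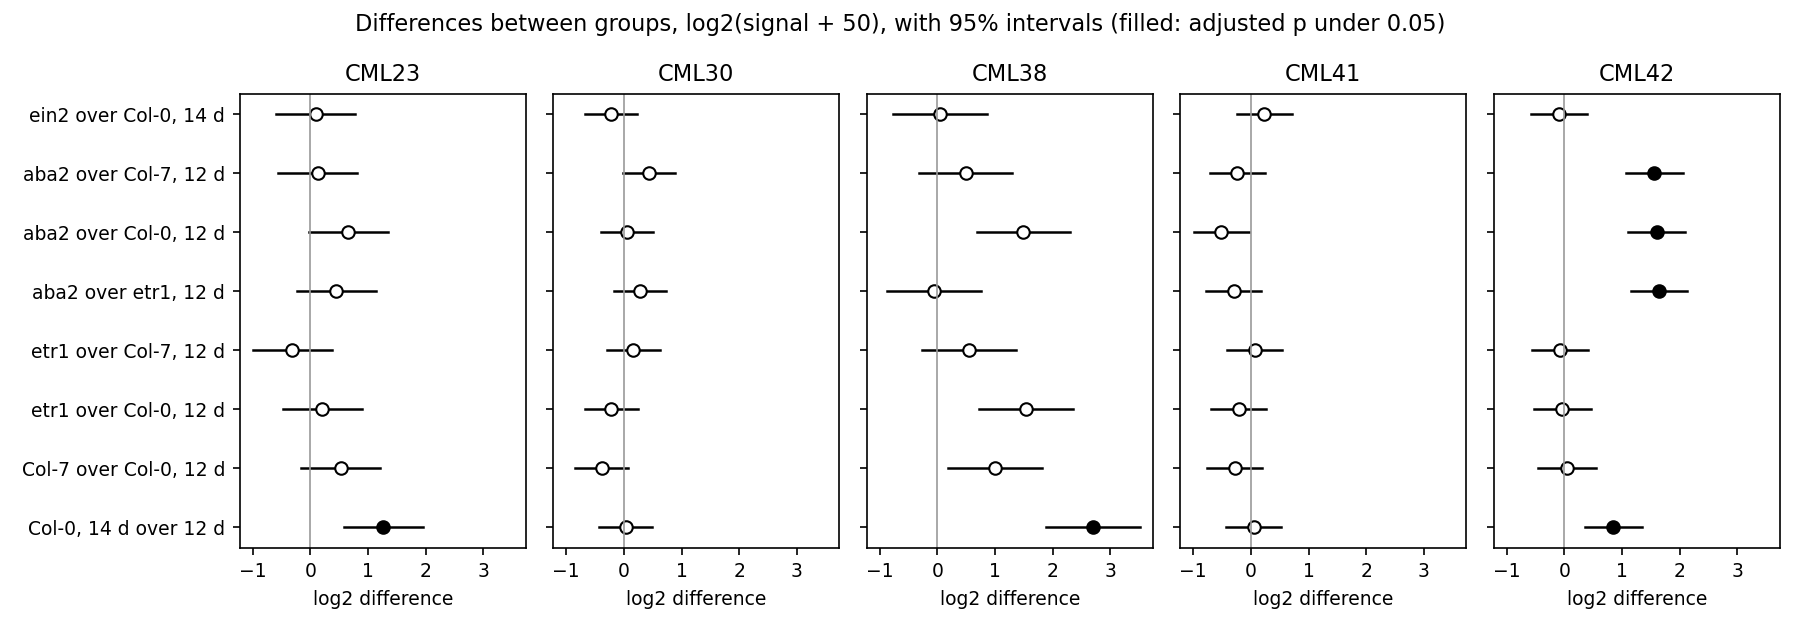
Log2 differences between groups for the 5 tested CML genes, on log2(signal + 50), with 95% intervals from limma (n = 2 arrays per group), filled where the adjusted p is under 0.05. CML42 was higher in aba2 than in each of the 3 other groups of its age (1.56 to 1.64), CML38, CML23 and CML42 were higher in Col-0 at 14 d than at 12 d, and in ein2 and etr1 no interval of CML42 left 0.

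Setting etr1 against the wild types of its age bears on transcripts that respond to blocked ethylene sensing. CML38 had signals of 1095 and 938.4 in etr1, against 273.2 and 363.6 in Col-0. Both etr1 arrays were above both Col-0 arrays, as was so for 19.3% of all tested probe sets. The difference was 1.54 ± 0.367 (2.91-fold, 95% interval 0.73 to 2.36), with an unadjusted p of 0.0017 and a limma adjusted p of 0.139, and so did not pass. The same Col-0 arrays served the comparisons with aba2, Col-7 and the older seedlings, which are not separate evidence that CML38 was low in them. Against Col-7 (465.1 and 987.2) the etr1 arrays overlapped with the wild type, and the difference was 0.54 ± 0.367 (adjusted p = 0.562 by limma).

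CML42 showed no such shift in etr1. Its signals there were 144.6 and 239.2, against 196.5 and 190.5 in Col-0 at 12 d and 160.8 and 248.7 in Col-7. The 95% intervals of the difference were -0.53 to 0.46 over Col-0 and -0.57 to 0.41 over Col-7. CML23 (85.03 and 103.2 in etr1, against 97.61 and 55.53 in Col-0), CML30 (229.1 and 163.6, against 212.7 and 257.3) and CML41 (89.25 and 129.4, against 146.1 and 121.5) overlapped between these groups too. CML37 was at its lowest group mean in etr1, with 1.702 and 2.006, far below the offset. In all, 0 of 5 CML genes passed in etr1 against Col-0 by limma, where 0.462% of all tested probe sets were called, and 1 of 5 had an unadjusted p under 0.05, as did 9.76% of all. Against Col-7 these were 0 of 5 by limma, with 0.821% called of all, and 0 of 5 at an unadjusted p under 0.05, with 13.6% of all.

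With aba2 set directly against etr1 at the same age, CML42 alone passed among the tested CML genes. The 784.8 and 604.9 of aba2 stood against 144.6 and 239.2 in etr1, a rise of 3.12-fold (1.64 ± 0.222, limma adjusted p = 0.00349). This was 1 of 5 genes, with 5.19% of all tested probe sets called. It passed whichever of the 4 arrays was left out (limma adjusted p at most 0.0399) and in every other setting tried (at most 0.00677). CML38 had 1292 and 734.9 in aba2, against 1095 and 938.4 in etr1 (-0.05 ± 0.367, 95% interval -0.87 to 0.76). CML37, under the filter, had 60.99 and 63.43 in aba2, against 1.702 and 2.006 in etr1. In the fit without the filter it was higher in aba2 by 1.11 ± 0.251 (adjusted p = 0.0476 by limma).

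At 14 d, ein2 blocks the ethylene pathway at a later step than etr1. Here no tested CML gene passed, with intervals that leave room for differences either way. CML42 had 359.9 and 365.5 in ein2, against 389.2 and 388.8 in Col-0, a narrow gap that put both ein2 arrays below the wild type (-0.09 ± 0.222, 95% interval -0.58 to 0.40). CML23 had 261.4 and 275.4 in ein2, against 252.1 and 246.4 in Col-0 (0.09 ± 0.309, 95% interval -0.60 to 0.77). CML38 had 2528 and 2279 in ein2, against 3064 and 1761 in Col-0 (0.04 ± 0.367, 95% interval -0.77 to 0.86).

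CML30 had 181.5 and 216.6 in ein2, against 224.7 and 255.5 in Col-0 (-0.22 ± 0.205), and CML41 had 200.8 and 147.4 in ein2, against 110.5 and 174.2 in Col-0 (0.23 ± 0.214). None of the 5 passed (0 of 5 by limma, and 0 of 5 at an unadjusted p under 0.05), where 0.374% of all tested probe sets were called and 5.37% had an unadjusted p under 0.05. The interval for CML38 ran from -0.77 to 0.86 on the log2 scale, so effects of up to that size are not excluded with 2 arrays a group. The arrays of CML38 and CML41 overlapped, both ein2 arrays were higher for CML23 and both lower for CML30 and CML42. How many of all tested probe sets separate in this way in ein2 is not given, so these separations are not read as effects. The dim genes overlapped, with 77.73 and 143.5 for CML37 in ein2, against 166.1 and 111 in Col-0, and 90.77 and 126.4 for CML43 in ein2, against 133.3 and 107.1.

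The effects of mutants were then compared with each other, each over a wild type of its age, with Col-7 taken for aba2. The effects set side by side share no arrays. Those of ein2 come from older seedlings than those of aba2 and etr1, and possibly from another set of measurements. For aba2 the wild type differs too. A difference between mutants cannot be told apart from these. The effect of aba2 over Col-7 on CML42 exceeded the effect of ein2 over Col-0 at 14 d by 1.65 ± 0.315 (1.56 in aba2 and -0.09 in ein2, limma adjusted p = 0.0417). It was the only 1 of the 5 CML genes to pass, where 1.05% of all tested probe sets did. With an offset of 10 the adjusted p was 0.0507 and without the filter 0.0719, and of the 8 arrays in the comparison the call held only with Col-7 replicate 2 left out (1.899, limma adjusted p = 0.025), and was lost without any other (0.0864 to 0.195). For CML38 the effect of etr1 over Col-0 exceeded that of ein2 by 1.496 ± 0.519, with an unadjusted p of 0.0158 and an adjusted p of 1 by limma. No CML gene passed in that difference (0 of 5 by limma, with 1 of 5 at an unadjusted p under 0.05), where 0.0147% of all tested probe sets were called and 3.54% had an unadjusted p under 0.05.

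**Figure D3:**
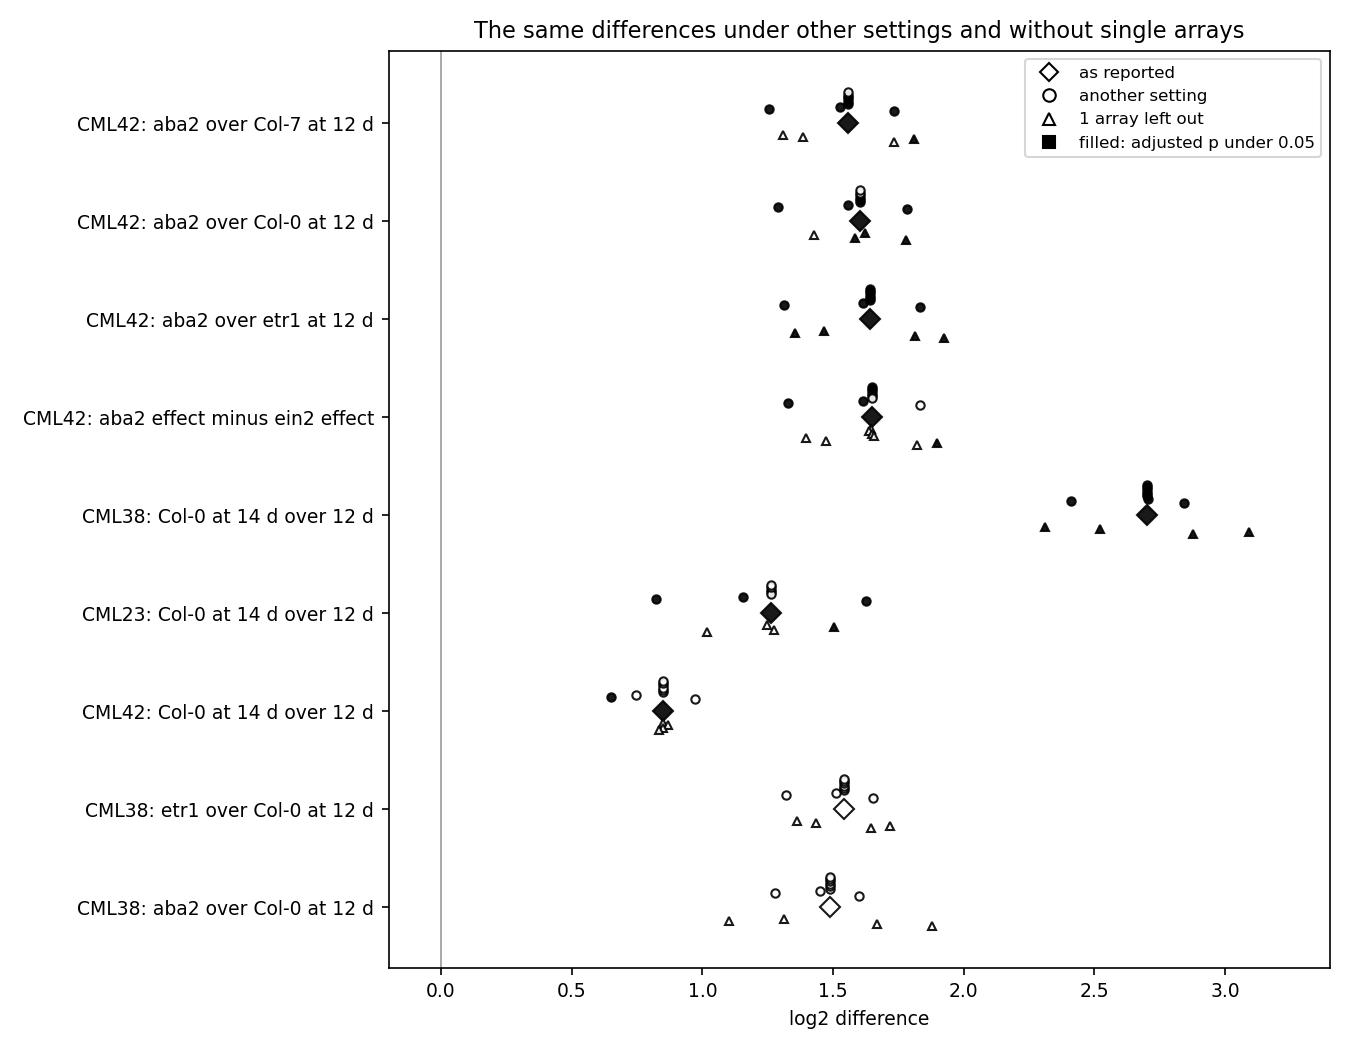
Log2 differences of the CML results that passed, and of CML38 in etr1 and aba2 over Col-0, as reported (diamonds), under up to 9 other settings (circles) and without 1 of the arrays compared (triangles), with points offset vertically for legibility and filled where the limma adjusted p is under 0.05. All values lie above 0, and the results filled throughout are CML42 in aba2 over etr1 and CML38 in Col-0 at 14 d over 12 d.

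The ages were compared in Col-0, at 14 d against 12 d. Whether the ages were also separate sets of measurements is not clear, so a difference between them may hold more than age. CML38 had 3064 and 1761 at 14 d, against 273.2 and 363.6 at 12 d, a rise of 6.5-fold (2.70 ± 0.367, limma adjusted p = 0.00271). It passed whichever of the 4 arrays was left out (2.309 to 3.091, limma adjusted p at most 0.0439) and in every other setting tried. CML23 had 252.1 and 246.4 at 14 d, against 97.61 and 55.53 at 12 d, a rise of 2.4-fold (1.26 ± 0.309, limma adjusted p = 0.0383). CML42 had 389.2 and 388.8 at 14 d, against 196.5 and 190.5 at 12 d, a rise of 1.8-fold (0.85 ± 0.222, limma adjusted p = 0.0491) at the edge of the threshold. So 3 of the 5 tested CML genes rose and 0 fell, where 6.48% of all tested probe sets were called, 4.61% higher and 1.88% lower. CML23 owed its place among the 5 to the arrays at 14 d, since the mean of its arrays at 12 d alone lay under the filter at 122.3. Its group means were 76.57 to 153 at 12 d, against 249.3 and 268.4 at 14 d. The same held for CML41, which was not called (78.21 to 133.8 at 12 d, against 142.3 and 174.1 at 14 d). The count is therefore not independent of the rise, and without the filter neither CML23 nor CML42 was called.

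These calls were not equally firm. CML42 lost its call without any of the 4 arrays (limma adjusted p 0.0725 to 0.26) and passed in 2 of 9 other settings. CML23 passed without Col-0 12 d replicate 1 (1.504, limma adjusted p = 0.0278) and not without 12 d replicate 2 (1.019, limma adjusted p = 0.0951), 14 d replicate 1 (1.248, limma adjusted p = 0.228) or 14 d replicate 2 (1.276, limma adjusted p = 0.166). CML30 (224.7 and 255.5 at 14 d, against 212.7 and 257.3 at 12 d) and CML41 (110.5 and 174.2 at 14 d, against 146.1 and 121.5 at 12 d) overlapped between the ages. Their 95% intervals were -0.43 to 0.48 and -0.43 to 0.52.

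The dim CML37 had 166.1 and 111 in Col-0 at 14 d, against 10.67 and 1.798 at 12 d. In the fit without the filter it rose by 1.73 ± 0.251 (adjusted p = 0.00606 by limma). CML43 had 133.3 and 107.1 at 14 d, against 72.22 and 87.5 at 12 d, and 0.39 ± 0.189 (adjusted p = 0.353 by limma) in that fit.

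Over all groups, CML23, CML37, CML38 and CML43 were higher on each of the 4 arrays at 14 d than on any of the 8 at 12 d. Of these, CML23 (lowest 246.4 at 14 d, highest 204.9 at 12 d) and CML38 (1761 and 1292) are 2 of the 5 tested genes, where 6.03% of all tested probe sets were higher in this way. For CML23 this count carries the same limit, since it passed the filter only through the arrays at 14 d. The margin was narrow for CML43 (90.77 and 87.5). CML42 did not separate by age, since both aba2 arrays were above the arrays at 14 d. The arrays at 14 d also had higher median signals. Among the antenna genes, LHCB4.3 had 358.5 to 765.3 on them, against 1112 to 2238 at 12 d. The brighter LHCB4.1 (16210 to 19060, against 18910 to 26830) and LHCB4.2 (17550 to 18640, against 16210 to 26350) overlapped between the ages. Of the 3 root markers that could be paired of 27 listed, EXPA18 had 126.8 to 229.8 at 14 d, against 80.81 to 146.9 at 12 d, PYK10 14700 to 17240, against 10070 to 14650, and EXPA7 66.53 to 138, against 37.48 to 116.4. The part of tissue makeup or of the array signals in the rise of the CML genes was not tested.

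The order of the group means sums up these differences. For CML42, aba2 (694.9 ± 127, SD, n = 2) came first, then Col-0 at 14 d (389 ± 0.311), ein2 (362.7 ± 3.98), Col-7 (204.8 ± 62.1), Col-0 at 12 d (193.5 ± 4.26) and etr1 (191.9 ± 66.8). The last 3 overlapped and the neighbours above them did not. For CML38 the order was Col-0 at 14 d (2413 ± 921), ein2 (2404 ± 176), etr1 (1017 ± 111), aba2 (1014 ± 394), Col-7 (726.2 ± 369) and Col-0 at 12 d (318.4 ± 64), with gaps below ein2 and below Col-7 only. For CML23 it was ein2 (268.4 ± 9.95), Col-0 at 14 d (249.3 ± 4.08), aba2 (153 ± 73.4), Col-7 (137.5 ± 77.2), etr1 (94.11 ± 12.8) and Col-0 at 12 d (76.57 ± 29.8), and from aba2 downwards each group overlapped with the next. All neighbours overlapped for CML30, from aba2 (246.9 ± 49.8) to Col-7 (169.9 ± 40.4). For CML41, from ein2 (174.1 ± 37.7) to aba2 (78.21 ± 0.722), only the last step, from Col-7 to aba2, was free of overlap.

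The other genes of the calcium pathway that carry a symbol in the annotation were 20, of which 12 passed the filter. They encode IQ-domain proteins (IQD), which bind calmodulin, glutamate receptor-like channels (GLR) and the calcium-binding chaperone calreticulin (CRT1b). ACA.l was counted only for its name as a calcium ATPase, and whether it moves calcium was not checked. In ein2 against Col-0, 0 of 12 were called by limma, where 0.374% of all tested probe sets were. There 1 of 12 had an unadjusted p under 0.05, as 5.37% of all (median -0.18 against 0.00 over all tested probe sets). In aba2 against Col-7, 0 of 12 were called, as were 0.454% of all (3 at an unadjusted p under 0.05, as 12.3% of all, median -0.12 against 0.00). In aba2 against Col-0, 0 of 12 were called too, where 1.62% of all were. But 6 had an unadjusted p under 0.05 (as 12.1% of all, median -0.06 against -0.02). Among them were ACA.l (1.11 ± 0.307, limma adjusted p = 0.132) and IQD24 (-0.90 ± 0.200, limma adjusted p = 0.0602). In etr1 against Col-0, 0 of 12 were called, where 0.462% of all were (1 at an unadjusted p under 0.05, as 9.76% of all, median -0.09 against 0.01). Their medians were thus near or below that of the array. At such small shares a count of 0 of 12 does not set these genes apart from the array, nor from CML42.

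In aba2 against etr1, 1 of these 12 rose and 1 fell, where 5.19% of all tested probe sets were called. IQD22 had signals of 630.8 and 1014 in aba2, against 252.5 and 232.9 in etr1 (1.54 ± 0.227, limma adjusted p = 0.00462). Against wild types it did not pass, with 0.71 in aba2 over Col-7, 0.66 in aba2 over Col-0, -0.88 in etr1 over Col-0 and -0.78 in ein2 over Col-0. IQD24 had 283 and 282.7 in aba2, against 557.9 and 532.5 in etr1 (-0.84 ± 0.200, limma adjusted p = 0.0403), and did not pass without any of the 4 arrays (0.16 to 0.232). With age in Col-0, 0 of 12 were called by limma, where 6.48% of all were (1 at an unadjusted p under 0.05, as 20.4% of all). Of the 12, 9 had a positive difference (median 0.09 against 0.00). CRT1b ranged from 2127 to 3439 over the 12 arrays.

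Short lists of stress genes stood beside the CML genes. Of 22 touch and rapid stress genes, 3 could be paired and tested: WRKY53, a transcription factor of leaf senescence and defence, STZ, a zinc-finger repressor of stress responses, and EXO, a growth gene of the brassinosteroid pathway. With age in Col-0, 2 of these 3 rose and 0 fell, where 4.61% of all tested probe sets rose. WRKY53 had 683 and 688.9 at 14 d, against 91.85 and 87.86 at 12 d (2.40 ± 0.211, limma adjusted p = 0.000562). STZ had 4502 and 3993 at 14 d, against 749 and 317.7 at 12 d (2.99 ± 0.754, limma adjusted p = 0.043), and with 1 array left out it passed only without 12 d replicate 1 (0.0319, otherwise 0.103 to 0.247). In aba2 against etr1, WRKY53 was the 1 of 3 called, with 849 and 522.2 in aba2, against 79.35 and 92.43 in etr1 (2.40 ± 0.211, limma adjusted p = 0.000364). In ein2 over Col-0, in aba2 over Col-7 and in etr1 over Col-0, 0 of the 3 passed by limma, with 1, 1 and 0 at an unadjusted p under 0.05. Of all tested probe sets, 0.374%, 0.454% and 0.462% were called there, and 5.37%, 12.3% and 9.76% had such an unadjusted p. WRKY53 was also the 1 of 3 called in aba2 over Col-0 (2.36, limma adjusted p = 0.00131), in etr1 over Col-7 (-1.63, limma adjusted p = 0.00973) and in the aba2 effect minus the ein2 effect (1.49, limma adjusted p = 0.0474). The first 2 of these calls depended on the wild type, since WRKY53 was 0.77 in aba2 over Col-7 (limma adjusted p = 0.17) and -0.04 in etr1 over Col-0 (limma adjusted p = 0.978). Between the wild types it had 328.2 and 417.1 in Col-7, against 91.85 and 87.86 in Col-0 at 12 d (1.59 ± 0.211, unadjusted p = 1.63e-05 and adjusted p = 0.103 by limma).

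Of 23 jasmonate and wounding genes, 3 were paired and 1 tested, OPCL1, a ligase of jasmonate synthesis. It rose in etr1 over Col-0 (1.304 ± 0.201, limma adjusted p = 0.0261), with 835.2 and 789.4 in etr1, against 341.1 and 261.8 in Col-0. It did not pass without etr1 replicate 1 (limma adjusted p = 0.258), etr1 replicate 2 (0.203) or Col-0 replicate 2 (0.0545). OPCL1 was also called in aba2 over Col-0 (1.67, limma adjusted p = 0.0033) and in Col-0 at 14 d over 12 d (1.62, limma adjusted p = 0.00177), and not in the other comparisons. All 3 calls are over Col-0 at 12 d. Over Col-7 the values were 0.88 in aba2 (limma adjusted p = 0.0977) and 0.51 in etr1 (limma adjusted p = 0.313), and Col-7 over Col-0 gave 0.80 (unadjusted p = 0.00254 and adjusted p = 0.598 by limma). The dim genes of the list did not pass in a fit without the filter: THI2.1, a thionin, had 0.45 in etr1 over Col-0, -0.42 in aba2 over Col-0 and -0.77 with age, and JMT, a jasmonate methyltransferase, had 0.80, -0.185 and -0.07 in the same comparisons. Their largest differences between groups were in ein2 over Col-0, with 1.57 for THI2.1 and 1.21 for JMT (adjusted p = 0.196 and 0.21 by limma). THI2.1 had 198.1 and 135.7 in ein2, against 20.09 and 24.33 in Col-0 at 14 d. JMT had 91.44 and 127, against 17.76 and 19.14. In the aba2 effect minus the ein2 effect they had -1.95 and -1.99 (adjusted p = 0.159 and 0.0667 by limma). Of 22 low-oxygen genes only PDC2, a pyruvate decarboxylase of fermentation, was paired. It had 506.5 and 614.9 in Col-0 at 14 d, against 881.6 and 983.1 at 12 d (-0.69 ± 0.185, limma adjusted p = 0.0544), which did not pass and ran opposite to CML38 in sign. Neither PDC2 nor a tested root marker was called in any of the 10 comparisons (0 by limma in each), where 0% to 6.48% of all tested probe sets were called.

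Among themselves, the CML genes were most alike for CML23 and CML37 over the 12 arrays (Pearson r = 0.88, Spearman rho = 0.86). CML37 and CML43 (r = 0.78, rho = 0.76), CML37 and CML38 (r = 0.74, rho = 0.68) and CML23 and CML38 (r = 0.74, rho = 0.76) followed. CML42 was closest to CML37 (r = 0.65, rho = 0.73), and CML42 and CML43 had r = 0.43 (rho = 0.52). CML30 had no r above 0.33 with any other. These values describe 12 arrays that share groups of replicates and the 2 ages, and carry no test.

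The tested probe sets with 1 gene most like each CML gene were sought over the same 12 arrays by Pearson's r among 7264 probe sets. Since they were chosen for likeness, the peaks and gaps they share with a CML gene follow from the choice and are no further evidence. For CML42 they were AT5G28630 (r = 0.949, rho = 0.923), PUB24, an E3 ubiquitin ligase (r = 0.947, rho = 0.937), and AT5G39020 (r = 0.946, rho = 0.937). PUB24 had 561.4 and 422.9 in aba2, against 97.65 to 294.8 on the other 10 arrays, so that its arrays too were highest in aba2. For CML38 they were AT2G27080 (r = 0.941, rho = 0.937), AT1G67470 (r = 0.94, rho = 0.902) and AT1G63750 (r = 0.938, rho = 0.937), each lowest in Col-0 at 12 d.

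For CML23 the closest were AT3G25600 (r = 0.974, rho = 0.965), AT3G10930 (r = 0.966, rho = 0.951) and AT4G29780 (r = 0.963, rho = 0.93). In Col-7 they followed CML23 in lying higher on replicate 1 than on replicate 2, with 1334 and 240.1 for AT4G29780. CML41 was closest to psbT, a plastid gene of photosystem II (r = 0.912, rho = 0.944), AT4G00700 (0.898 and 0.86) and AT2G23950 (0.89 and 0.895). CML30 had weaker matches, AT4G37210 (r = 0.835, rho = 0.692), SCN1, a regulator of root hair growth (r = 0.824, rho = 0.804), and AT2G23070 (r = 0.82, rho = 0.804).

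**Figure D4:**
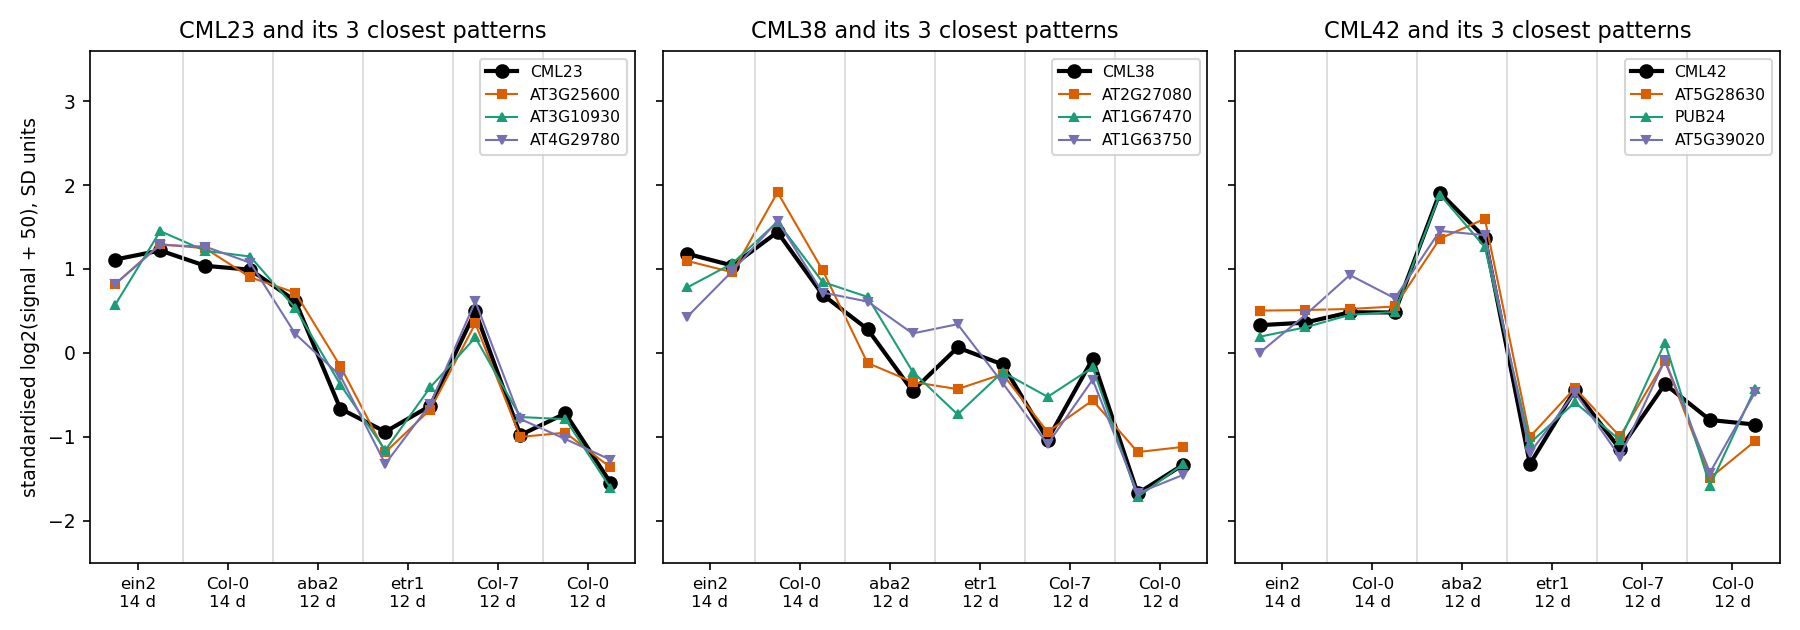
Log2(signal + 50) of CML23, CML38 and CML42 and of the 3 genes closest to each by Pearson's r over the 12 arrays, centred and scaled to SD units per gene, with the 2 arrays of each group side by side and lines only to guide the eye. CML42 and its matches peak in aba2, those of CML38 are highest at 14 d and lowest in Col-0 at 12 d, and those of CML23 share its gap between the Col-7 replicates. The matches were chosen for likeness on these arrays, so the shared shapes follow from the choice.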

How the data were processed

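The deposited values are MAS5 signal intensities of 12 one-colour ATH1 arrays, made with Affymetrix Microarray Suite 5.0 per the labels and the design text. They were linear and above 0, and the authors had scaled each array to a common trimmed mean. Detection calls were not used here, and how many reads or cells lie behind a signal does not apply: the number of arrays limits the precision. Each array was set to the same mean after trimming 2% at each end, then log2(signal + 50) was taken. Probe sets with a mean signal under the 40th percentile (122.3) were left out, and 13648 of 22746 were tested. Of the 22746, 13513 were paired with 1 gene by the platform annotation (13436 of these found in RefSeq, TAIR10.1), 503 with several and 8730 were unnamed here.

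Groups came from the sample titles. limma 3.58.1 in R 4.3.3 fitted 6 group means to 12 arrays (eBayes with trend, 6 residual and 4.35 prior degrees of freedom). The procedure was tested on simulated data. All CML probe sets are described, with the 3 closest genes of each by Pearson's r. The calcium, low-oxygen, jasmonate and touch lists are named by smallest p. From 24 symbols that matched the calcium pattern, 4 were left out. Their RefSeq synonyms name no IQ domain, glutamate receptor, calreticulin, calcium or calmodulin. None of 20 green tissue markers was paired, so the LHCB4 genes were used, chosen after the names were read. The members and lists were chosen with earlier results of these data known. As alternatives, the offset was 10 or 150, arrays were quantile normalized, the filter was dropped or set at the 60th percentile, and fits used eBayes without trend, array weights, the replicate number as a block, only the arrays compared, and each array left out.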

Additional observations from a re-analysis of the deposited data

Results flagged for a closer look

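CML42 was singled out because its aba2 effect differed from its ein2 effect by a test of the difference itself. These effects come from seedlings of different ages and from different wild types, and possibly from different sets of measurements. A difference between the mutants cannot be told apart from these. The aba2 effect over Col-7 minus the ein2 effect over Col-0 at 14 d was 1.65 on the log2 scale (limma adjusted p = 0.0417; 0.0205 to 0.0719 over the other settings), from effects of 1.56 and -0.09. With 1 array left out the call was lost for 7 of the 8 arrays (limma adjusted p 0.0864 to 0.195) and held only without Col-7 replicate 2 (0.025). Both aba2 arrays were higher than both Col-7 arrays, and both ein2 arrays lower than both Col-0 arrays by a narrow gap. The share of all tested probe sets that separate in this way is not given for these groups, so this adds no support. Groups of 2 arrays are too small for a check of single outlying arrays.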

How the results depend on the processing

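With 1 choice changed at a time, 475 of 501 log2 differences kept their direction and side of the threshold, 22 lost a call, 1 gained one (IQD22 in ein2 over Col-0 with array weights, limma adjusted p = 0.0417) and 3 turned sign. Most of the 501 were uncalled as reported and had no call to lose, so the 475 does not measure how firm the calls were. Of 276 values with 1 array left out, 32 turned sign. Of the 5 CML genes tested, the number called became 0 in aba2 over Col-7 with only the arrays compared, 0 in aba2 over Col-0 with array weights or only the arrays compared, 1 in Col-0 at 14 d over 12 d without the filter, with the 60th percentile (which CML23 does not pass), array weights or only the arrays compared, and 0 for the aba2 effect minus the ein2 effect with an offset of 10 or no filter. Between the ages it was 2 with an offset of 10, quantile normalization or eBayes without trend. Without the filter CML37 was tested and called too, between the ages and in aba2 over etr1, which makes 2 CML genes in each. Without the filter, 0.824% of all probe sets were called over the comparisons, for more probe sets tested. With quantile normalization, CML30 (-0.071) and CML41 (-0.046) turned sign between the ages, as did CML30 (-0.003) in the etr1 effect minus the ein2 effect. The cause was not tested.

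With 1 array left out, the CML genes called numbered 0 to 1 in aba2 over Col-7, 0 to 1 in aba2 over Col-0, 1 to 2 between the ages and 0 to 1 for the aba2 effect minus the ein2 effect. The differences that turned sign were uncalled: in ein2 over Col-0, CML38 (-0.346 to 0.436) and CML41 (-0.011 to 0.471); in aba2 over Col-7, CML23 (-0.303 to 0.562) and CML38 (-0.015 to 0.995); in aba2 over Col-0, CML30 (-0.119 to 0.225); in etr1 over Col-0, CML23 (-0.037 to 0.447) and CML42 (-0.323 to 0.248). In etr1 over Col-7 they were CML23 (-0.751 to 0.114), CML30 (-0.03 to 0.356), CML41 (-0.116 to 0.25) and CML42 (-0.367 to 0.205). CML38 in aba2 over etr1 ranged from -0.439 to 0.335, CML42 in Col-7 over Col-0 from -0.208 to 0.295, and between the ages CML30 from -0.085 to 0.141 and CML41 from -0.192 to 0.29. For the aba2 effect minus the ein2 effect these were CML23 (-0.392 to 0.473) and CML38 (-0.06 to 0.95), and for the etr1 effect minus the ein2 effect CML23 (-0.127 to 0.358), CML30 (-0.19 to 0.196) and CML42 (-0.234 to 0.337).

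The groups share replicate numbers, but no label pairs them. Deviations of same-numbered arrays correlated at -0.16 to 0.54 over the 8 direct comparisons. With the replicate number as a block, the CML genes called stayed at 0 in ein2, 1 in aba2 over each wild type and over etr1, 0 in etr1 and 3 between the ages, and 1.81% of all probe sets were called over the comparisons.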

Other observations

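AT1G76640, which neighbours CML38 in the RefSeq gene list and carries CML39 among its synonyms there, had signals of 41.16 and 3.132 in ein2, against 17.62 and 20.3 in Col-0 at 14 d. At 12 d it had 2.42 and 3.915 in aba2, 35.75 and 9.168 in etr1, 22.84 and 2.06 in Col-7, with 2.368 and 2.496 in Col-0. It did not pass the filter, and its arrays lay far apart within ein2, etr1 and Col-7.

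STZ, chosen here after its values were seen, had gaps between replicates of the same sign as CML23 in the 4 groups at 12 d. At 14 d the gaps of CML23 were near 0 (-0.06 in ein2 and 0.03 in Col-0). On log2(signal + 50), replicate 1 minus replicate 2 for CML23 was 0.75 in aba2, -0.18 in etr1, 0.86 in Col-7 and 0.48 in the 12-d Col-0. For STZ these gaps were 1.03, -1.92, 2.14 and 1.12 in the same order of groups. For CML38 they were 0.77 in aba2, -1.01 in Col-7 and -0.36 in the 12-d Col-0, so that CML23 and CML38 differed in sign between the replicates of both wild types at 12 d.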
